A study of Mus musculus with 16 samples.

Results

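The T and NK cell genes described here are 10 genes, taken by symbol, that mark T lymphocytes, natural killer (NK) cells and the cytotoxic granules of both. They are Cd3e, Cd3d, Cd3g, Cd4, Cd8a, Klrd1, Nkg7, Gzma, Gzmb and Ccl5, and they were sought among the 16612 genes with a row in either of 2 tables of normalized counts. Cd4 and Nkg7 have a row in both tables, Klrd1 has a row in the tumor table only, and 7 genes have a row in neither.

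RNA-seq was performed on bone marrow of C57BL/6J mice, 6 to 8 weeks old, that received 500000 BCR-ABL+, Arf-/- B-cell acute lymphoblastic leukemia (B-ALL) cells by tail vein. Recipients were wild-type (WT) or lacked IL-6 (IL-6 KO), a cytokine of inflammation, in every cell of the host. No mouse was treated, and marrow was taken on day 8 from femur and tibia. The leukemic cells were of 1 genotype in both hosts and carry the red fluorescent protein mCherry, so that live cells were sorted into mCherry+ cells (tumor) and mCherry- cells (stroma, which here means all live mCherry- single cells left after lysis of red cells). Each of the 4 groups (WT stroma, IL-6 KO stroma, WT tumor, IL-6 KO tumor) had 4 libraries. The labels number the libraries and do not say which mouse each came from, so p-values measure the spread between these libraries.

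A T cell recognizes antigen with its receptor, whose antigen-binding chains signal through the CD3 proteins (Cd3e, Cd3d and Cd3g) and the zeta chain Cd247. The co-receptors Cd4 and Cd8a separate helper from cytotoxic T cells. NK cells carry lectin-like receptors such as Klrd1 (CD94), which pairs with Klrc1 or Klrc2, and kill, as cytotoxic T cells do, by releasing granules that hold granzymes (Gzma, Gzmb) and the membrane protein Nkg7. Ccl5 is a chemokine made by activated T and NK cells. In marrow these cells are a minority beside myeloid, erythroid and B-lineage cells.

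Most of the defining genes had no row. The tables do not list Cd3e, Cd3d and Cd3g, the core of the T cell receptor complex, which lie next to each other on mouse chromosome 9 (GRCm38, from Cd3g at position 44969572 to the end of Cd3e at 45009627). They do not list Cd8a on chromosome 6, Gzma on chromosome 13, Gzmb on chromosome 14 or Ccl5 on chromosome 11 either, and a search by gene identifier found them under no other name. These 7 genes were not analysed here, and no row is not a value of 0. The rule by which genes entered the tables is not given in the sources used here. Of the 21951 protein-coding genes in the annotation, 47.9% have no row in stroma and 45.5% none in tumor, against 8 and 7 of the 10 genes. The lowest mean of any listed gene was 0.892 normalized counts in stroma and 3.95 in tumor, so genes of low level are among those with a row.

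Longer lists of related genes had rows in part. Of 44 other NK cell and cytotoxic genes, 31.8% have a row in stroma and 34.1% in tumor. Neither table lists Ncr1, Klrk1, Klre1, Klrg1, Eomes, Prf1 (perforin), Gzmk, Fasl or Ifng, and the partners of Klrd1, Klrc1 and Klrc2, have no row either. Of 40 other T cell genes, 57.5% have a row in stroma and 70% in tumor, and 8 have none, among them Cd8b1, Gata3, Themis and Cd96. Of 30 genes of antigen receptor signaling, most of which B cells and myeloid cells also use, 96.7% have a row in stroma and 90% in tumor. The share of listed genes rose from lists of NK cell genes to lists of genes that many leukocytes share.

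**Figure D1:**
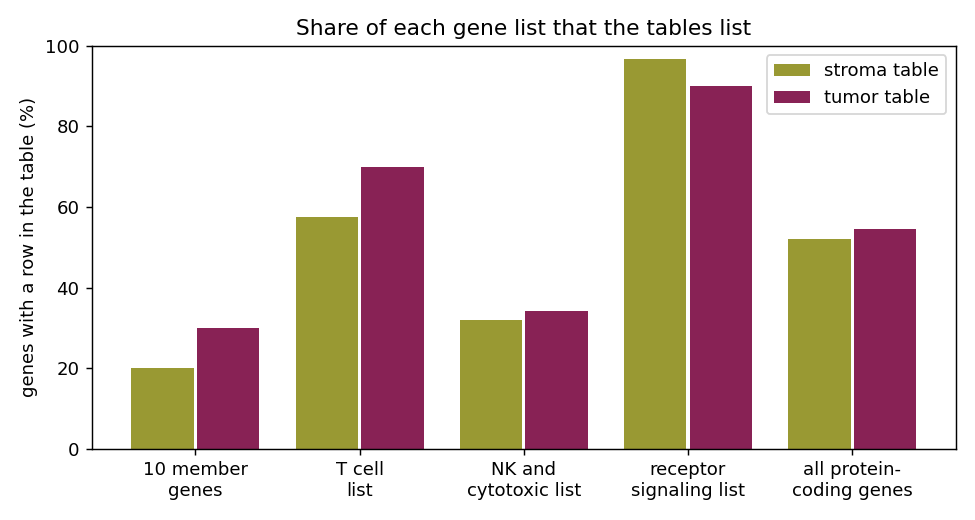
Bars give the percent of genes in each list (horizontal axis) that have a row in the stroma table and in the tumor table (vertical axis, from 0 to 100%). The 10 T and NK cell genes stand at 20% in stroma and 30% in tumor, the receptor signaling list at 96.7% and 90%, and the last pair of bars gives all protein-coding genes for comparison.

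The values are normalized counts, which the authors scaled within each table, so that genotypes were compared only within stroma or within tumor. Genotypes were tested with limma, with 1 added to each normalized count before taking log2, on genes whose mean exceeded 10. A gene was called when its Benjamini-Hochberg adjusted p was under 0.05. Fold changes are given as IL-6 KO minus WT on that log2 scale, on which low genes show less than their true change. SE is the standard error, and every adjusted p is from this limma fit. In stroma 1 of 12202 genes was called (0.0082%, lower in IL-6 KO), while 1117 reached 0.05 before adjustment. In tumor 2870 of 14493 genes were called (19.8%), 1542 of them higher (10.6%) and 1328 lower (9.16%). Once the dependence of each library on GC content and transcript length had been taken out, the calls were 1493 higher and 658 lower. Il6, the gene removed in the KO hosts, was not analysed here, so it gave no check of the labels. The stroma libraries stood apart in their composition. The 7SL RNA Rn7s1 held 19.2% to 50.1% of the normalized counts in WT stroma and 71.5% to 79.0% in 3 IL-6 KO libraries, and in IL-6 KO stroma 4 the ribosomal RNA CT010467.1 held 61.5%. The median residual SD of a gene was 0.857 in stroma and 0.212 in tumor on the log2 scale.

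Cd4 was the only one of the 10 genes tested in stroma. Its normalized counts were 12.8, 13.4, 6.49 and 44.8 in the WT libraries and 3.48, 1.59, 0 and 3.85 in the IL-6 KO libraries. Every IL-6 KO library was below every WT library, WT stroma 4 was the highest, and IL-6 KO stroma 3 was at 0. The groups did not overlap in 5.79% of all genes tested in stroma. The libraries averaged 19.4 ± 17.2 (SD, n = 4) in WT hosts, against 2.23 ± 1.79 (SD, n = 4) in IL-6 KO hosts. The gene passed the filter only through the WT libraries, so its fold change is given as a description. It was -2.56 (SE 1.16, 95% interval -5.07 to -0.05) and was not called (adjusted p = 0.537, and 0.464 in a fit without the filter), where 0.0082% of all genes were called. Without WT stroma 4 the WT average was 10.9, Cd4 fell under the filter, and the fit without it gave -2.06 (adjusted p = 0.695). Without IL-6 KO stroma 4 the value was -2.84 (adjusted p = 0.456). Markers of megakaryocytes and platelets moved the other way between the same libraries. Their 5 listed genes of 8 summed to between 62.7 and 215 in WT and between 268 and 877 in IL-6 KO, without overlap, and Ppbp, Gp1bb and Treml1 have no row. Markers of dendritic cells moved the same way as Cd4 but overlapped, with 8 of 10 genes listed (Xcr1 and Cd209a have no row) and sums of 258 to 451 in WT and 137 to 380 in IL-6 KO. Those of plasmacytoid dendritic cells, 9 of 12 listed, summed to 981 to 1420 and 878 to 1352. The part of these cells in the result was not tested. In bulk RNA, fewer cells of a type and less RNA per cell cannot be told apart.

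Nkg7 was near 0 in stroma. The WT libraries held 12.8, 6.06, 0 and 0 normalized counts and the IL-6 KO libraries 18.9, 20.3, 0 and 1.87. Both groups held libraries at 0, and they overlapped. With a mean of 7.49 over the 8 libraries it fell under the filter, and a fit of all listed genes gave a log2 fold change of 0.91 (SE 1.36, adjusted p = 0.864). Among the genes listed in stroma the mean of Nkg7 was at percentile 5.19 and that of Cd4 at percentile 9.63. Per kilobase of the longest transcript, Nkg7 stood at 8.50 and Cd4 at 3.48 normalized counts over the 8 libraries, an order that their spread does not separate.

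Klrd1 was the highest of the 3 listed genes in tumor per length. It was lower in IL-6 KO hosts in the values as deposited, and this call was lost (-0.24, adjusted p = 0.467) once GC content and transcript length were accounted for together. The WT tumor libraries held 159, 208, 167 and 169 normalized counts. The IL-6 KO tumor libraries held 53.4, 62.3, 98.0 and 79.5. Every IL-6 KO library lay below every WT library, WT tumor 2 was the highest and IL-6 KO tumor 1 the lowest. The libraries averaged 176 ± 21.9 (SD, n = 4) in WT hosts, against 73.3 ± 19.7 (SD, n = 4) in IL-6 KO hosts, and the log2 fold change was -1.28 (SE 0.21, 95% interval -1.75 to -0.81, adjusted p = 0.00438). Genotypes did not overlap in 25.6% of all genes tested in tumor. With each library left out in turn the log2 fold change lay between -1.43 and -1.14 and was called each time.

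**Figure D2:**
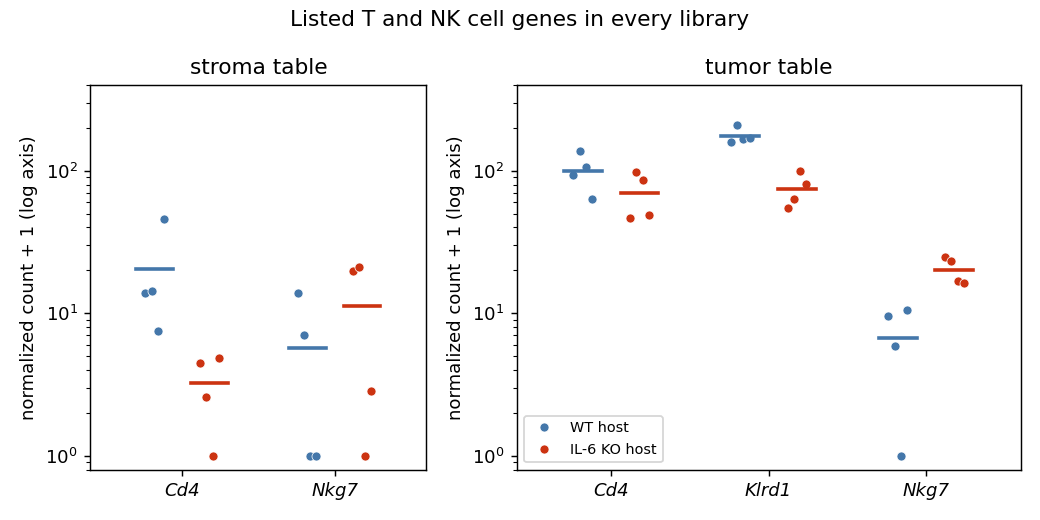
Points are single libraries and bars the group means, on a log axis of normalized count + 1, with WT hosts in blue and IL-6 KO hosts in red, for stroma (left) and tumor (right). Klrd1 in tumor separates the genotypes with the 4 WT libraries between 159 and 208, Nkg7 in tumor runs the other way at lower values, and Cd4 overlaps in tumor but not in stroma.

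Cd4 was found in every tumor library. The WT libraries held 91.7, 138, 105 and 62.4 normalized counts and the IL-6 KO libraries 45.7, 97.2, 85.8 and 48.2. The groups overlapped, with WT tumor 4 below IL-6 KO tumor 2 and 3. The libraries averaged 99.1 ± 31.1 (SD, n = 4) in WT hosts, against 69.2 ± 26.2 (SD, n = 4) in IL-6 KO hosts, and the log2 fold change of -0.53 (SE 0.32, 95% interval -1.25 to 0.18) did not pass the test (adjusted p = 0.264).

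Nkg7 was low in tumor, at 8.52, 4.92, 0 and 9.47 normalized counts in WT and 23.7, 22.1, 15.8 and 15.4 in IL-6 KO. Every IL-6 KO library was above every WT library, as in the 25.6% of genes tested in tumor without overlap in either direction. WT tumor 3 was at 0. The libraries averaged 5.73 ± 4.29 (SD, n = 4) in WT hosts, against 19.3 ± 4.25 (SD, n = 4) in IL-6 KO hosts. The log2 fold change of 2.01 (SE 0.73, 95% interval 0.39 to 3.64) missed the threshold (adjusted p = 0.0794). It was 1.25 (adjusted p = 0.083) without WT tumor 3, and 1.27 (adjusted p = 0.0434) with a pseudocount of 5 in place of 1. Nkg7 passed the filter only through the IL-6 KO libraries, so none of these values is read as support for a difference. Markers of neutrophils moved with it. All 12 genes of that list have a row. Their sum lay between 4871 and 5561 in WT tumor and between 7765 and 18784 in IL-6 KO tumor. Of the 12, 10 were called higher, beside 10.6% of all genes tested in tumor. The sum of the leukemic B cell markers also rose without overlap, from 135282 to 139836 in WT to 146926 to 153984 in IL-6 KO. Of these 10 genes 1 was called higher and 1 lower, beside 10.6% and 9.16% of all genes tested in tumor. Their median log2 fold change was 0.095. The summed monocyte and macrophage markers rose and the summed T cell markers fell, as given below. The part of any of these cells in the level of Nkg7 was not tested.

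Of the 3 genes tested in tumor 1 was called, lower in IL-6 KO, 33.3% against 19.8% of all genes called in either direction and 9.16% called lower, and only Klrd1 and Cd4 had a mean over 10 in both genotypes. Per kilobase of the longest transcript the order over the 8 tumor libraries was Klrd1 at 135 normalized counts, Cd4 at 27.1 and Nkg7 at 14.2. On this scale every library of Klrd1 lay above every library of Cd4 and Nkg7, while those of Cd4 and Nkg7 overlapped. Within the same table the B cell receptor gene Cd79a, a marker of the leukemic cells, stood at 16115 per kilobase. Klrd1 was at percentile 33.9 of the gene means, Cd4 at 30.5 and Nkg7 at 7.02.

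The call for Klrd1 was lost when the dependence of the libraries on GC content and transcript length was taken out together. The 3 listed genes differ in the share of G and C, which is shown here in the first 300 coding bases of each from the longest annotated coding transcript (GENCODE vM21, GRCm38), 5′ to 3′, with every G and C in capitals.
Klrd1: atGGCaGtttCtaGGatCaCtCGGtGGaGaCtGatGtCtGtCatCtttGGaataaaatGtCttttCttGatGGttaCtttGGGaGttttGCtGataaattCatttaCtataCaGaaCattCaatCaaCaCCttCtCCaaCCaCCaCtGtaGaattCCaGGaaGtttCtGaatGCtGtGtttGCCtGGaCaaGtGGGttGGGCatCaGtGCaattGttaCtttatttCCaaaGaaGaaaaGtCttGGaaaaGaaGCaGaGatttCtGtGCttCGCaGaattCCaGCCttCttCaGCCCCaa
Nkg7: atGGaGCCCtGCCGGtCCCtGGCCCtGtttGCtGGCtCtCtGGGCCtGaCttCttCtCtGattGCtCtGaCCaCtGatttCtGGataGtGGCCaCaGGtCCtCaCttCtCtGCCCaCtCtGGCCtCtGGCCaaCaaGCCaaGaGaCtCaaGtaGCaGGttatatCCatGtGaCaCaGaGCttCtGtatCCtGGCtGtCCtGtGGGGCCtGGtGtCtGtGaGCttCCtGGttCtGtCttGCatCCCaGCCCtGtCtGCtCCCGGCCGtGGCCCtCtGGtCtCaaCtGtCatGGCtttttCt
Cd4: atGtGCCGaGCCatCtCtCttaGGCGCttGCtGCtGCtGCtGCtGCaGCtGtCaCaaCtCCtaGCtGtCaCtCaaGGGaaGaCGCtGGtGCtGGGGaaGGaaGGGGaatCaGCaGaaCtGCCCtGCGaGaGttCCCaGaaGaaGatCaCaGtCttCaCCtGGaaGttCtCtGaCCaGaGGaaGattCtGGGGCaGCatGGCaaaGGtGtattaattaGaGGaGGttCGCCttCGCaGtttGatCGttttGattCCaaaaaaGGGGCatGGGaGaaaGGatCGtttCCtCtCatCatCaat
G and C make up 122 of the 300 bases in Klrd1, 170 in Nkg7 and 154 in Cd4. Over the whole transcript the share is 35.8% in Klrd1 (919 bases), 53.1% in Nkg7 (881 bases) and 52.0% in Cd4 (3108 bases). Klrd1 stood at percentile 0.898 of the genes tested in tumor by GC content and at percentile 9.07 by length. On the annotation Klrd1 lies on chromosome 6 from 129591782 to 129598775 (plus strand), Cd4 on chromosome 6 from 124864692 to 124888221 (minus strand) and Nkg7 on chromosome 7 from 43437073 to 43438249 (plus strand), and no other annotated gene overlaps any of the 3.

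In tumor the genotype difference of all genes followed GC content. The median log2 fold change was -0.27 in the lowest of 10 equal groups of genes by GC content and rose to 0.24 in the highest. Taking out the dependence of each library on GC content and length brought Klrd1 to -0.24 (adjusted p = 0.467), Cd4 to -0.60 (adjusted p = 0.236) and Nkg7 to 1.99 (adjusted p = 0.0914), so that none of the 3 was called. Fitted on protein-coding genes alone, a choice made after the values were seen, the correction took Klrd1 to -0.63 (adjusted p = 0.0538). With GC content alone it was -0.81 (adjusted p = 0.0234) and with length alone -1.17 (adjusted p = 0.00632), and both passed. Few genes resemble Klrd1 in both respects. Within 2 percentage points of GC and 0.5 of log2 length there were 24 others, with a median of -0.89, and 8 of them were at or below Klrd1. Of these 24, 12 were called lower and 0 higher. Only 7 of them are protein-coding, Lsm5, Rpa3, Zfp965, Gm14435 and the mitochondrial genes mt-Atp6, mt-Nd1 and mt-Nd2, with a median of -1.47.

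**Figure D3:**
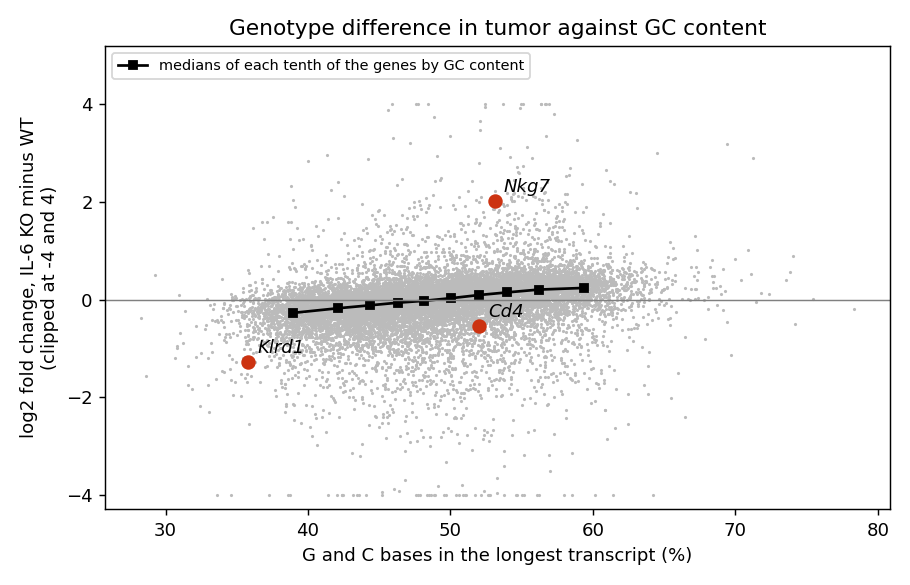
Each grey point is a gene tested in tumor, with the percent of G and C in its longest transcript on the horizontal axis and its log2 fold change (IL-6 KO minus WT, clipped at -4 and 4) on the vertical axis, and squares join the medians of 10 equal groups of genes by GC content. The medians rise from -0.27 to 0.24, and Klrd1 (red) lies at the low end of GC content while Cd4 and Nkg7 lie above the middle.

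Other genes of the T cell list had rows in tumor, at very different levels. In this paragraph Trbc1, Trac, Cd2, Lck, Zap70, Lat and Cd5 were chosen after their values were seen. Trbc1, the constant region of the receptor beta chain, held 745 to 1088 normalized counts in WT and 693 to 940 in IL-6 KO tumor (log2 fold change -0.22, SE 0.14, adjusted p = 0.299). Its alpha chain counterpart Trac was far lower, at 35.5, 16.0, 33.9 and 12.2 in WT and 13.4, 4.75, 3.62 and 6.74 in IL-6 KO, and the groups overlapped (-1.65, SE 0.52, adjusted p = 0.0503), with a mean over 10 in WT only. Per kilobase Trbc1 stood at 1233 and Trac at 16.9. Trbc2 has no row, and the source of these transcripts was not tested. The adhesion receptor Cd2 stood at 1183 per kilobase and its fold change was -0.06 (SE 0.08, adjusted p = 0.626). The kinase Lck was at 450 per kilobase, with 983 to 1287 normalized counts in WT and 501 to 973 in IL-6 KO, without overlap (-0.56, SE 0.19, adjusted p = 0.0686). Such a lack of overlap was seen in 25.6% of all genes tested in tumor. Zap70, the kinase that binds the CD3 and zeta chains, stood at 64.6 per kilobase, its adaptor Lat at 64.0 and the inhibitory receptor Cd5 at 29.2. Of these genes none passed the test as deposited, and after removal of the GC and length trend Lck (-0.69, adjusted p = 0.0281) and Cd5 (-0.60, adjusted p = 0.0315) did.

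**Figure D4:**
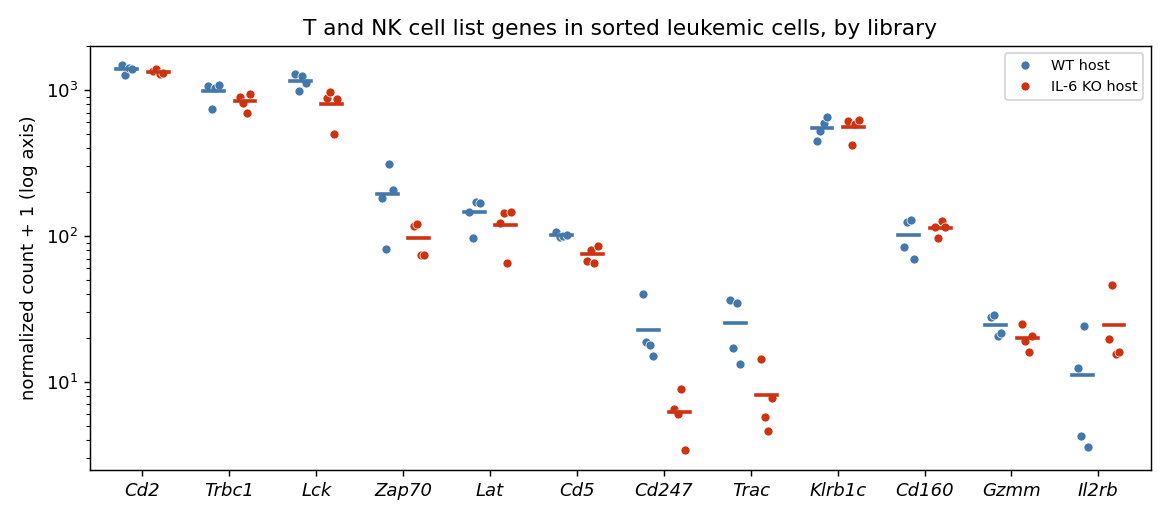
Points are single tumor libraries and bars group means on a log axis of normalized count + 1, with WT hosts in blue and IL-6 KO hosts in red. Cd2, Trbc1, Lck and Klrb1c lie highest, and Cd247 and Trac lie below 40. The genotypes are separate for Cd247, Lck and Cd5, as for 25.6% of all genes tested in tumor.

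Of the 28 T cell list genes tested in tumor, 2 were higher and 3 lower in IL-6 KO hosts (17.9% against 19.8% of all genes), with a median log2 fold change of -0.30 beside -0.0059 over all genes. Cd247, the zeta chain of the T cell receptor and of NK cell Fc receptors, held 38.8, 17.8, 16.8 and 14.0 normalized counts in WT and 5.56, 4.99, 8.0 and 2.39 in IL-6 KO. Every IL-6 KO library was below every WT library, where 25.6% of all genes tested in tumor did not overlap. WT tumor 1 stood well above the other WT libraries. Its log2 fold change was -1.84 (SE 0.49, adjusted p = 0.0276), and it shares 206 bases with the gene Gm16565. Cd247 passed the filter only through the WT libraries and fell under it without WT tumor 1, so its place among the 3 lower genes is a description. Ccr7, the receptor that guides lymphocytes to lymph nodes, fell by 0.78 (SE 0.21, adjusted p = 0.0303), from 67.1 to 80.2 normalized counts in WT to 31.8 to 52.6 in IL-6 KO. The phosphatase Ptpn22, which restrains T and B cell receptor signals, held 3177 to 3284 normalized counts in WT and 2246 to 2405 in IL-6 KO (-0.48, SE 0.06, adjusted p = 0.00153). Tcf7, a transcription factor of T cell progenitors, rose by 0.33 (SE 0.10, adjusted p = 0.043), was called in 1 of the 8 fits that left a library out, and was lost after removal of the GC and length trend (0.26, adjusted p = 0.088), with quantile normalization and without the variance trend. The adaptor Lcp2, also used by myeloid cells and platelets, rose from 40.3 to 54.7 normalized counts in WT to 64.1 to 179 in IL-6 KO (1.15, SE 0.30, adjusted p = 0.0254). Among the 5, Ptpn22 was called in all 8 fits with a library left out, Lcp2 in 4, Ccr7 in 3 and Cd247 in 3 of the 7 that tested it. Quantile normalization also lost the calls of Ccr7 and Cd247. That of Cd247 was lost too with the replicate number as a block and the GC and length correction together. The count of called list genes lay between 1, without WT tumor 1 or IL-6 KO tumor 4, and 6. It was 3 without WT tumor 2 or IL-6 KO tumor 1 and 2 without WT tumor 3.

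The summed level of the 6 listed genes of a 13-gene T cell marker list (Cd247, Trac, Trbc1, Cd4, Lck and Cd5) lay between 1997 and 2621 in WT tumor and between 1355 and 1972 in IL-6 KO tumor, without overlap. Lck and Trbc1 made up most of it, and neither was called (limma adjusted p = 0.0686 and 0.299). For single genes, the genotypes did not overlap in 25.6% of all genes tested in tumor. The same list had 3 genes in stroma (Cd4, Lck and Bcl11b), where the sums of 58.0 to 109 in WT and 20.8 to 338 in IL-6 KO overlapped. Cd3e, Cd3d, Cd3g, Cd8a, Cd8b1 and Trbc2, which define T cells, have a row in neither table.

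Among the 14 NK cell and cytotoxic list genes tested in tumor, 2 were higher and 2 lower (28.6% against 19.8% of all genes), with a median log2 fold change of 0.02. Slamf7, a receptor of NK cells and plasma cells, fell from 329 to 539 normalized counts in WT to 133 to 272 in IL-6 KO (-1.22, SE 0.24, adjusted p = 0.00949). Srgn, the proteoglycan of secretory granules in many blood cells, fell by 0.72 (SE 0.11, adjusted p = 0.00308). Tyrobp and Fcer1g, signaling adaptors that NK cells share with neutrophils and monocytes, rose by 1.67 (SE 0.36, adjusted p = 0.0134) and 0.90 (SE 0.24, adjusted p = 0.0284). Tyrobp held 46.5 to 61.9 normalized counts in WT and 75.8 to 291 in IL-6 KO, and Fcer1g held 55.7 to 70.6 in WT and 79.8 to 172 in IL-6 KO. The rise of Tyrobp, Fcer1g and Lcp2 ran beside that of the neutrophil markers given above and of the summed monocyte and macrophage markers. The 12 listed genes of the latter summed to between 2047 and 2502 in WT and between 2597 and 3612 in IL-6 KO. Mrc1 alone had a mean of 1443 over the 8 tumor libraries, and the median log2 fold change of the list was 0.10. Of these 12, 3 were called higher, beside 10.6% of all genes tested in tumor. The part of these cells in the result was not tested. Slamf7, Srgn and Tyrobp were called in all 8 fits with a library left out and Fcer1g in 3.

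Klrb1c, the NK1.1 antigen of C57BL/6 NK cells, was chosen after its values were seen. It held 444 to 649 normalized counts in WT tumor and 420 to 618 in IL-6 KO tumor, with a log2 fold change of 0.02 (SE 0.16, adjusted p = 0.939). Klrb1c stood at 212 normalized counts per kilobase in tumor, above the 135 of Klrd1, and has no row in stroma. Together with Klrd1 and Nkg7 it is 1 of 3 listed genes of 10 NK cell markers, whose sums of 611 to 827 in WT and 504 to 713 in IL-6 KO overlapped. Gzma, Gzmb, Prf1, Ncr1, Klrk1, Klre1 and Eomes of that list have no row in the tumor table.

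Antigen receptor signaling was described by 30 genes, of which 27 were tested in tumor, 2 higher and 3 lower in IL-6 KO (18.5% against 19.8%), with a median of -0.19. Syk, the kinase that takes the place of Zap70 in B cells, rose by 0.30 (SE 0.05, adjusted p = 0.00554). The adaptor Grb2 fell by 0.44 (SE 0.08, adjusted p = 0.00678), and the protease Malt1, which links receptors to NF-kB, fell by 0.75 (SE 0.14, adjusted p = 0.00727). Malt1 resembles Klrd1 in GC content (35.8%), and it was lost after removal of the GC and length trend (-0.41, adjusted p = 0.0622). Ptpn22 and Lcp2 are on this list as well. Grb2 shares a stretch of 655 bases with Gm12791, and Malt1 154 of its 6404 bases with D6Wsu163e, so reads from these stretches may be shared.

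**Figure D5:**
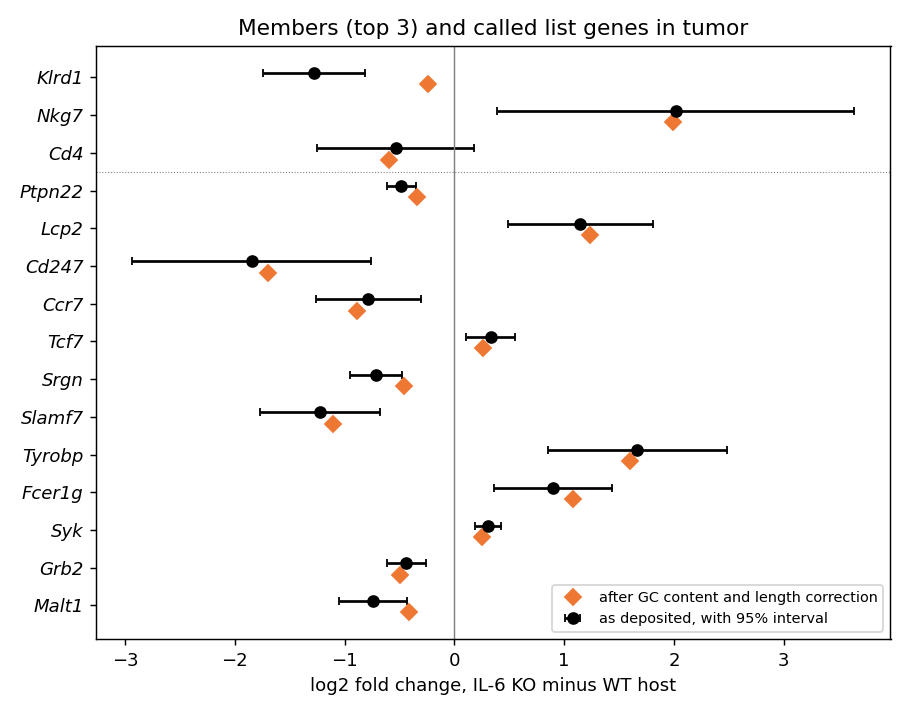
Black points give the log2 fold change in tumor (IL-6 KO minus WT, horizontal axis) with its 95% interval for the 3 listed T and NK cell genes (above the dotted line) and the called list genes, and orange diamonds the value after the trend with GC content and length was removed. Klrd1 moves from -1.28 to -0.24, Malt1 from -0.75 to -0.41 and Srgn from -0.72 to -0.46, and the values of Nkg7, Cd247 and Tyrobp stay within their intervals.

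In stroma none of the list genes was called by limma. The T cell list had 15 genes tested and 1 with an unadjusted p under 0.05, the NK cell and cytotoxic list 10 and 3, and the signaling list 28 and 1. The median log2 fold change was -0.67, 0.05 and -0.02, beside -0.01 over all genes. Grap2, an adaptor of T cell receptor signaling that platelets also express, had the smallest p of the T cell list. It held 525, 503, 412 and 580 normalized counts in WT and 260, 166, 195 and 263 in IL-6 KO, without overlap (-1.20, SE 0.32, adjusted p = 0.324). Fcer1g held 0, 31.5, 43.0 and 55.2 in WT and 92.4, 74.0, 108 and 113 in IL-6 KO, without overlap (2.52, SE 1.08, adjusted p = 0.514), and Tyrobp gave 1.13 (SE 0.44, adjusted p = 0.471) with overlap. Of all genes tested in stroma 5.79% did not overlap. Grap2 and Fcer1g were named for their small p, so their lack of overlap is a description. Serpinb9, an inhibitor of granzyme B, gave -3.03 (SE 1.24, adjusted p = 0.5), with overlap and a mean over 10 in WT only. The remaining genes named by smallest p, Cd6, Ptpn22, Lcp2, Il18rap, Nck1 and Ppp3ca, had adjusted p-values between 0.57 and 0.68 (limma). Neutrophil markers in stroma summed to between 7596 and 14444 in WT and between 8012 and 33127 in IL-6 KO and overlapped. Slamf7, chosen after its values were seen, held 11.4 to 18.5 normalized counts in the WT libraries and 0, 0, 0 and 1.53 in those of IL-6 KO, and its mean was under the filter.

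Of the genes whose values over the 8 libraries of a table were most like those of the listed NK and granule genes, Snora9 (Pearson's r = 0.98, Spearman's rho = 0.52) led in tumor, against the mean of Klrd1 and Nkg7, and 2610044O15Rik8 (r = 0.92, rho = 0.85) in stroma, against Nkg7. Klrd1 and Nkg7 moved in opposite directions in tumor (log2 fold change -1.28 and 2.01), and Nkg7 was at 0 in WT tumor 3, so their mean stands for neither gene. The points share library and genotype, so the values are a description only. The mean of the CD3 genes could not be formed.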

How the data were processed

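Bulk RNA of sorted mCherry+ (tumor) and mCherry- (stroma) cells, taken from hosts with and without IL-6, was measured in 16 libraries, 4 per group, grouped by the labels. After ribosomal depletion and single-end sequencing, the authors ran Salmon 1.3.0 against mm10 with corrections for GC and sequence bias and deposited normalized counts from DESeq2 1.28.1, a signal that is not whole reads and from which whole reads could not be recovered. The authors state an approximate depth for all samples, but the depth of each single library is not given, and no counting interval was computed. Their tables of fold changes, test statistics and p-values were not used.

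Each table was tested with limma 3.58.1 (R 4.3.3, trended variance) on log2(normalized count + 1), genes with a mean over 10, genotype as the only term, two-sided, Benjamini-Hochberg threshold 0.05, after a test on simulated data. Annotation was GENCODE vM21, in which 13338 of 13344 stroma and 15069 of 15080 tumor identifiers matched. Shared stretches were matches to transcripts of other genes with at least 97% identity over at least 150 bases (BLAST 2.17.0). GC and length trends were removed by loess (span 0.3). Python 3.11.15 with pandas 2.3.3, SciPy 1.17.1 and matplotlib 3.10.9 was used.

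The members and lists were chosen with earlier results of these data known. Named were all 10 members and, per list and table, up to 6 called genes with the smallest adjusted p, or up to 4 with the smallest p where none was called, and the 5 genes most like the members, of which the first is printed. Genes outside this rule are said to be chosen after their values were seen. The alternatives were pseudocounts of 0.5 and 5, filters at 0 and 50, quantile normalization, median centring, array weights, no variance trend, the replicate number as a block, GC and length corrections, and each library left out. The corrections for GC alone, for length alone and on protein-coding genes, and the fits that left out a library with no filter, were added once values had been seen.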

Additional observations from a re-analysis of the deposited data

Results flagged for a closer look

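In groups of 4 libraries, a value was singled out when its gap to the nearest other library exceeded Dixon's 95% critical share of the group's range, which chance alone gives in about 1 of 20 groups, and 54 groups were examined. Cd247, the zeta chain, held 38.8 normalized counts in WT tumor 1 and 14.0 to 17.8 in the other WT tumor libraries. Syk held 9876 in WT tumor 3 against 9612 to 9654 in the other WT tumor libraries, and 12628 in IL-6 KO tumor 2 against 11708 to 11841 in the other IL-6 KO tumor libraries.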

How the results depend on the processing

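Cd4 and Nkg7 kept their direction in every alternative that tested them, and Klrd1 kept its direction in all of them. In tumor, 1 of the 10 genes was called as reported, 2 with a pseudocount of 5 (Nkg7 added), and 0 after the GC and length correction, with that correction and the block, or with it fitted on protein-coding genes. Klrd1 was then at -0.24 (limma adjusted p = 0.467), -0.24 (0.505) and -0.63 (0.0538). Over all genes in tumor 2870 calls became 1668 with block and GC and length correction, 1863 with the protein-coding correction, and between 1569 and 3327 with a library left out. The fewest, 1569, 1617, 1722 and 1791, came without IL-6 KO tumor 4, IL-6 KO tumor 1, WT tumor 3 and WT tumor 2. The corrections also moved the split of higher and lower calls, to 1744 and 674 for GC alone and 2203 and 959 for length alone. In stroma the 1 call became 4 with array weights, 6 without the variance trend, 2 with GC alone or the protein-coding correction, and 1 to 3 with a library left out (3 without library 3 of WT or library 3 or 4 of IL-6 KO, 2 without library 1 of IL-6 KO). Array weights gave 4153 calls over all 14493 genes tested in tumor, with 9 T cell list genes and 13 signaling genes among them, and leaving out a library gave 1 to 6 T cell list genes. The cause was not tested. Replicate numbers are shared by the groups, and the labels do not say whether they pair samples. Deviations of same-numbered libraries correlated at -0.03 to 0.13 in stroma and -0.02 to 0 in tumor. Not every library correlated best with its own number, but with 4 libraries per group these values cannot decide whether the numbers pair samples. With the replicate number as a block 2230 genes were called in tumor and 1 in stroma, and no call among the 10 genes changed, while those of Tcf7, Lcp2 and Ccr7 were lost. Low values limit Nkg7 and stroma Cd4, whose libraries reach 0.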
